A study of Mus musculus with 6 samples.

Results

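Levels of the 10 AP-1 subunit genes Fos, Fosb, Fosl1, Fosl2, Jun, Junb, Jund, Atf3, Batf and Batf3 were read from polyadenylated RNA of 6 mouse libraries. These genes were taken by symbol from 38561 gene IDs, all 10 were found under 1 ID each, and all 10 passed the filter on low counts that left 19024 genes for testing. The libraries formed 3 groups of 2: cells sorted with an antibody to NG2 from skeletal muscle, osteosarcomas from the right tibia and the lumbar spine, and soft tissue sarcomas from under the skin. Every animal, the source of the normal cells included, carried NG2-Cre;p53flox/flox on a mixed background, so that Cre, driven by the promoter of the NG2 gene Cspg4, could delete p53 in cells with an active NG2 promoter. The labels gave no age, and they did not say whether the libraries of a group came from separate animals, so p-values measured the spread between these libraries. Antibody sorting was stated for the NG2 cells alone, and each group had its own sequencing lane, so sorting, lane and group cannot be told apart.

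AP-1 is a family of dimeric transcription factors in which a Fos, Jun or ATF-like subunit pairs through a leucine zipper and binds DNA at the TPA response element or the cyclic AMP response element. Fos, Fosb, Jun, Junb and Atf3 are immediate early genes: growth factors, injury and stress induce them within minutes, and their mRNAs decay quickly. Fosl1, which encodes Fra-1, and Fosl2, which encodes Fra-2, are usually induced later, and Fosl1 is itself a known AP-1 target that has been linked to invasive growth of tumour cells. In the skeleton of mice, Fos is required for osteoclasts and its overexpression gives osteosarcoma, while Fosl1 and Fosl2 act in bone matrix formation.

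The upstream sequences of the 5 immediate early members are shown because these genes had high levels together in the NG2 libraries. RefSeq promoter windows (build GRCm38.p6, from 250 bases before to 50 bases after the start) were available for 9 of the 10 members, Fosl1 being the exception. Printed below are the 250 bases before the RefSeq start, 5' to 3' on the strand of the gene: Fos at chr12:85473640-85473889 (plus strand), Fosb at chr7:19310046-19310295 (minus strand), Jun at chr4:95052223-95052472 (minus strand), Junb at chr8:84978749-84978998 (minus strand) and Atf3 at chr1:191183334-191183583 (minus strand). Capitals mark the core TGACG of the cyclic AMP response element, read on either strand, and in Jun the longer match TGACATCA.
Fos: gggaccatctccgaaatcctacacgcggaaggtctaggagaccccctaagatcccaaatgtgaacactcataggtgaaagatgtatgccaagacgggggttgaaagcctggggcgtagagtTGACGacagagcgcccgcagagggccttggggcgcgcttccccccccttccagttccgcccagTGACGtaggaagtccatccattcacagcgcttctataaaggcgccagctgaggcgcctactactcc
Fosb: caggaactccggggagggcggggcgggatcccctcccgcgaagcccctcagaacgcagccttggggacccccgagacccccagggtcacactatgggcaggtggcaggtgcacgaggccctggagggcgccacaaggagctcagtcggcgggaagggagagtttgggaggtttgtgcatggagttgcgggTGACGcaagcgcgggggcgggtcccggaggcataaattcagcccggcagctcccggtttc
Jun: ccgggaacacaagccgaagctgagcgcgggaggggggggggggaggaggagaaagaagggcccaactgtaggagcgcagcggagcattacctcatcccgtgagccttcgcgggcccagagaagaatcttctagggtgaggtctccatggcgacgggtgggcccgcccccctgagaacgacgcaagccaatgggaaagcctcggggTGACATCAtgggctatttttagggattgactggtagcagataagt
Junb: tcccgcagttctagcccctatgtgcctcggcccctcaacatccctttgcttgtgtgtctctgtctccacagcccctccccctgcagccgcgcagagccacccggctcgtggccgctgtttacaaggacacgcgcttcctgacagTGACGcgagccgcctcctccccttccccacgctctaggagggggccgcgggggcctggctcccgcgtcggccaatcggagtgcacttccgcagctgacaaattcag
Atf3: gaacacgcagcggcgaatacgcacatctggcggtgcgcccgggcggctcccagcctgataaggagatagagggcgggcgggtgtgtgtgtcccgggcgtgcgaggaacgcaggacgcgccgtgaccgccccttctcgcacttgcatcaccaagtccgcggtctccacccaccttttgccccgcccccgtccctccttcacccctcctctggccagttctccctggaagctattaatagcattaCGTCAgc

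Of the 9 windows, 5 held the core TGACG, at bases -129 to -125 and -66 to -62 of Fos, -60 to -56 of Fosb, -106 to -102 of Junb, -7 to -3 of Atf3 on the opposite strand, and -98 to -94 of Batf. The core was present in 20.8% of the 32851 RefSeq windows of the same length. The longer form TGACNTCA, which contains the core when N is G, was found in Jun at bases -45 to -38 and in 8.83% of all windows. None of the 9 windows held the TPA response element TGANTCA, present in 7.81% of all windows, or the serum response (CArG) box, present in 1.63%. These matches describe letters in the window and say nothing of binding. Bases outside the windows were not searched, so the absence of a motif applies to the windows alone. For Jund the window was placed on the RefSeq start at base 70697739, upstream of the gene start at 70698949 in the annotation used for lengths.

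Fos fell in both tumour types, while Fosl1 rose in soft tissue sarcoma. Fos stood at 1209 and 1474 CPM (reads on the gene relative to all reads counted on genes, scaled by TMM) in the NG2 libraries, 19.5 and 81.0 CPM in the osteosarcomas, and 23.7 and 12.8 CPM in the soft tissue sarcomas. Both NG2 values lay above every tumour value, at percentiles 99.6 and 99.7 of the tested genes of their library. Fos fell 26.7-fold in osteosarcoma, a log2 difference of -4.74 ± 0.78 (SE), and 73.4-fold in soft tissue sarcoma, -6.20 ± 0.84 (edgeR adjusted p = 0.0149 and 0.0117). Between the tumour groups its values overlapped, with a difference of -1.46 ± 0.68 (edgeR adjusted p = 0.373).

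Fosb, whose product shares the transactivating end of Fos, showed the largest differences from NG2 cells among the 10 genes. It was at 501 and 778 CPM in the NG2 libraries, 0.985 and 0.676 CPM in the osteosarcomas, and 2.90 and 0.573 CPM in the soft tissue sarcomas. The tumour values rested on 52 and 19 counts in osteosarcoma and 173 and 17 counts in soft tissue sarcoma, against 18077 and 33929 counts in NG2 cells. Fosb fell in both tumour types, with log2 differences of -9.57 ± 0.98 for osteosarcoma and -8.49 ± 0.93 for soft tissue sarcoma (edgeR adjusted p = 0.00581 and 0.00871). Soft tissue sarcoma library 1 set the size of the second difference, which was -10.10 without it and -7.76 without library 2.

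Fosl1 was highest in soft tissue sarcoma. It was at 3.46 and 5.13 CPM in the NG2 libraries, 6.75 and 4.16 CPM in the osteosarcomas, and 159 and 239 CPM in the soft tissue sarcomas. The soft tissue sarcoma values, from 9461 and 7102 counts, were at percentiles 94.0 and 96.5 of the tested genes, while NG2 and osteosarcoma values overlapped between percentiles 39.1 and 46.8. Fosl1 rose by 5.53 ± 0.47 on the log2 scale in soft tissue sarcoma against NG2 cells, 46.2-fold (edgeR adjusted p = 0.0073). Against osteosarcoma it rose by 5.19 ± 0.46, 36.4-fold (edgeR adjusted p = 0.0428). Osteosarcoma against NG2 cells gave 0.35 ± 0.39 (edgeR adjusted p = 0.548), a value that turned to -0.05 without osteosarcoma library 1.

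The exons of Fosl1 share 1163 of their 2033 bases with Ccdc85b, a coiled-coil gene on the opposite strand of chromosome 19. The strand setting of the counting was not given in the sources used here, so reads of this stretch may have been counted for neither gene or for 1 of them. Ccdc85b itself was at 0.997 and 1.31 CPM in the NG2 libraries, 1.82 and 3.73 CPM in the osteosarcomas, and 8.96 and 8.25 CPM in the soft tissue sarcomas. It rose by 2.90 ± 0.67 on the log2 scale in soft tissue sarcoma against NG2 cells (edgeR adjusted p = 0.0350), from levels far under those of Fosl1 in the sarcomas. Shorter overlaps with opposite-strand genes touched Jun (232 bases, with Junos), Junb (173 bases, with Prdx2) and Jund (877 bases, with Gm11175, at 0 counts in every library).

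Fosl2 in osteosarcoma overlapped with both other groups, while its soft tissue sarcoma values lay under both NG2 values. Its level was 44.8 and 103 CPM in the NG2 libraries, 25.1 and 120 CPM in the osteosarcomas, and 37.9 and 37.8 CPM in the soft tissue sarcomas. No comparison of Fosl2 passed the test, with log2 differences of -0.03 ± 0.75, -0.97 ± 0.75 and -0.94 ± 0.75 for osteosarcoma against NG2 cells, soft tissue sarcoma against NG2 cells and soft tissue sarcoma against osteosarcoma (edgeR adjusted p = 0.982, 0.387 and 0.605). The spread within osteosarcoma, 4.79-fold between its libraries, was wider than these differences, the largest of which was 1.96-fold.

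**Figure D1:**
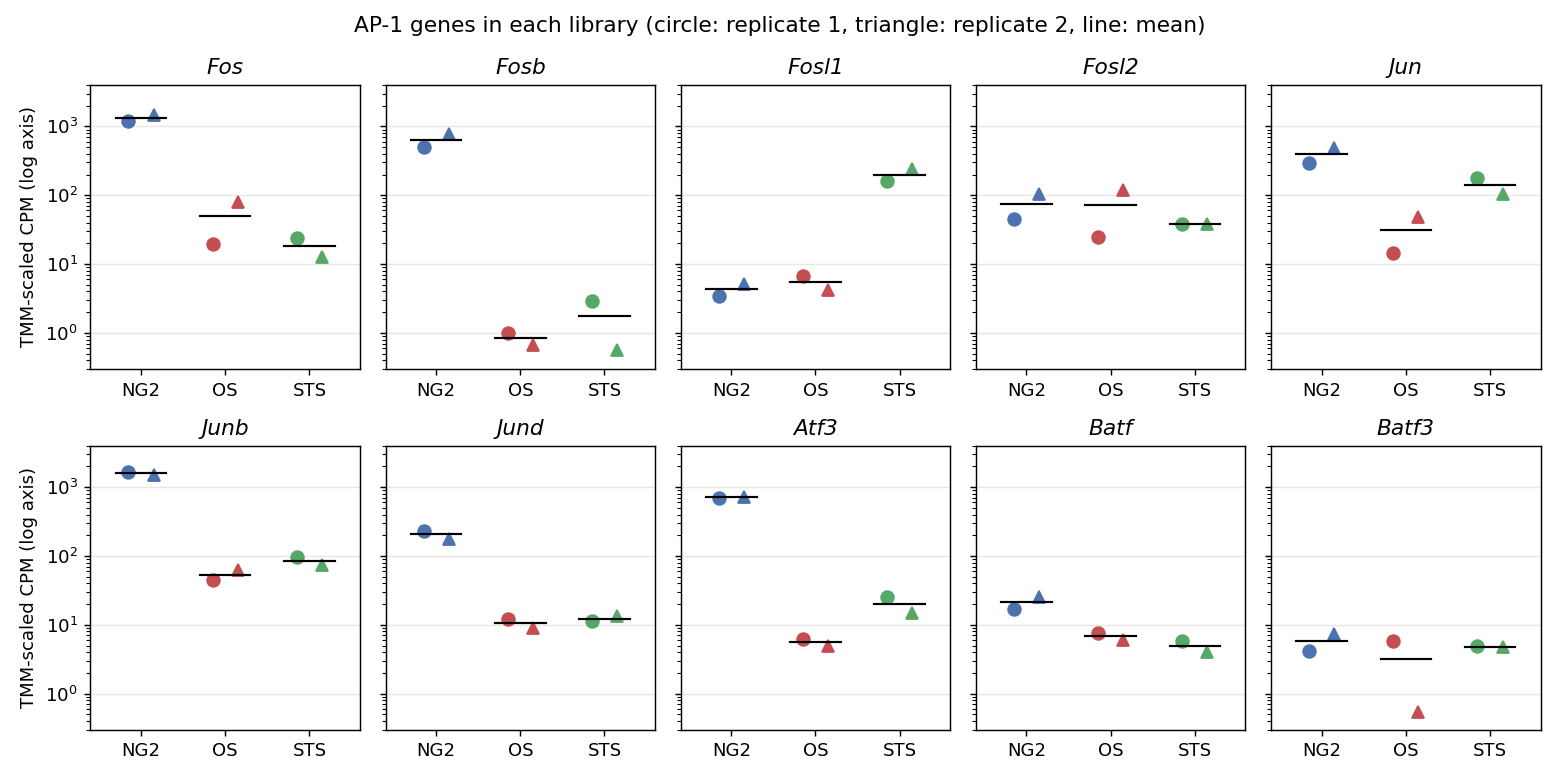
Level of each AP-1 gene in TMM-scaled CPM on a log axis for the 6 libraries (NG2, NG2 cells; OS, osteosarcoma; STS, soft tissue sarcoma), with circles for replicate 1, triangles for replicate 2 and a line at the mean. Fos, Fosb, Junb, Jund and Atf3 are highest in both NG2 libraries, and Fosl1 in both soft tissue sarcomas at 159 and 239 CPM.

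Among the Jun genes, Junb and Jund fell in both tumour types and Jun in osteosarcoma. Junb, which pairs with Fos proteins and restrains proliferation in several cell types, was at 1680 and 1483 CPM in the NG2 libraries, 44.9 and 61.7 CPM in the osteosarcomas, and 96.9 and 72.8 CPM in the soft tissue sarcomas. The NG2 values were separate from all tumour values. It fell 29.7-fold in the former, a log2 difference of -4.89 ± 0.35, and 18.6-fold in the latter, -4.22 ± 0.34 (edgeR adjusted p = 0.00419 and 0.0073).

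Jund, the Jun gene expressed most steadily in resting cells, was at 233 and 179 CPM in the NG2 libraries, 12.3 and 8.85 CPM in the osteosarcomas, and 11.3 and 13.2 CPM in the soft tissue sarcomas. Jund fell 19.5-fold and 16.8-fold, log2 differences of -4.28 ± 0.34 and -4.07 ± 0.33 (edgeR adjusted p = 0.00419 and 0.0073). The tumour groups overlapped for Jund, with a difference of 0.21 ± 0.30 (edgeR adjusted p = 0.792).

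Jun, the founding Jun subunit and a target of JNK kinases, was at 297 and 490 CPM in the NG2 libraries and 14.5 and 48.4 CPM in the osteosarcomas. In soft tissue sarcoma it stood at 175 and 106 CPM, between the other groups and without overlap with either. Jun fell 12.5-fold in osteosarcoma, a log2 difference of -3.65 ± 0.68 (edgeR adjusted p = 0.0195). The differences of -1.49 ± 0.62 for soft tissue sarcoma against NG2 cells and 2.16 ± 0.64 for soft tissue sarcoma against osteosarcoma did not pass (edgeR adjusted p = 0.141 and 0.201). With osteosarcoma library 1 or library 2 left out, the edgeR adjusted p of the former was 0.0472 or 0.0455. DESeq2 gave an adjusted p of 0.0166 for the latter.

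In the ATF-like branch, Atf3, a stress-induced subunit that often acts as a repressor, had the most uniform NG2 level, 706 and 717 CPM. It was at 6.22 and 4.91 CPM in the osteosarcomas and 25.7 and 14.9 CPM in the soft tissue sarcomas, with no overlap among the 3 groups. Atf3 fell 128-fold in osteosarcoma, a log2 difference of -6.996 ± 0.44, and 35.0-fold in soft tissue sarcoma, -5.13 ± 0.40 (edgeR adjusted p = 0.00419 and 0.0073). The higher value in soft tissue sarcoma than in osteosarcoma, a difference of 1.87 ± 0.35, did not pass in edgeR (adjusted p = 0.0985) and passed in DESeq2 (adjusted p = 0.000148).

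Batf and Batf3 lack a transactivation domain and pair with Jun proteins, in lymphocytes and dendritic cells together with Irf4 or Irf8. Batf was at 17.1 and 25.3 CPM in the NG2 libraries, 7.62 and 6.04 CPM in the osteosarcomas, and 5.91 and 4.04 CPM in the soft tissue sarcomas. It fell 4.25-fold in soft tissue sarcoma, a log2 difference of -2.09 ± 0.47 (edgeR adjusted p = 0.0331), a call lost without NG2 library 1 or 2 (adjusted p = 0.0694 and 0.121). In osteosarcoma Batf differed by -1.63 ± 0.46, just outside the threshold (edgeR adjusted p = 0.0541, and 0.00131 in DESeq2). Batf3 was at 4.13 and 7.41 CPM in the NG2 libraries, 5.91 and 0.533 CPM in the osteosarcomas, and 4.93 and 4.75 CPM in the soft tissue sarcomas, with overlapping groups throughout.

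Counted together, 6 of the 10 genes fell in osteosarcoma against NG2 cells (Fos, Fosb, Jun, Junb, Jund and Atf3), none rose and 4 did not pass. Across all 19024 genes, edgeR called 21.5% in this comparison, 11.0% lower and 10.5% higher. In soft tissue sarcoma against NG2 cells, 6 fell (Fos, Fosb, Junb, Jund, Atf3 and Batf), Fosl1 rose and 3 did not pass, where 19.3% of all genes were called, 9.40% lower and 9.89% higher. The median log2 difference of the 10 members was -3.97 and -3.08 in these comparisons, beside 0.04 and 0.00 for all tested genes. Tumour and NG2 libraries did not overlap for 7 members in osteosarcoma and 9 in soft tissue sarcoma, where 65.1 and 70.4% of all tested genes did not overlap. Both comparisons used the same NG2 libraries, so their members' values are not independent.

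With soft tissue sarcoma library 1 or library 2 left out, edgeR called no gene in soft tissue sarcoma against NG2 cells at an adjusted p under 0.05, while 4510 and 4286 genes, 7 members among them each time, had an unadjusted p under 0.05. The 7 called members kept their direction, with adjusted p from 0.0610 to 0.150 without library 1 and from 0.0581 to 0.225 without library 2. Calls of other genes in soft tissue sarcoma against NG2 cells, reported below, were lost as well. In osteosarcoma against NG2 cells, Fos and Jun left the called set without NG2 library 1 (edgeR adjusted p = 0.0502 and 0.0529) or library 2 (0.0565 and 0.0752). The log2 difference of Fos there was -4.05 without osteosarcoma library 1 and -6.09 without library 2, and that of Jun -3.03 and -4.75. Junb, Jund, Fosb and Atf3 remained called in that comparison whichever library was left out.

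The tumour types were set against each other in the third comparison, in which 27 of 19024 genes were called (0.142%, with 0.0841% higher and 0.0578% lower in soft tissue sarcoma). Fosl1 was the 1 member called, higher in soft tissue sarcoma, and 9 did not pass. None was lower. At an unadjusted p under 0.05 there were 3 members, Fosl1, Jun and Atf3, all higher, and DESeq2 called the same 3. Over all genes, 15.89% had such a p in this comparison and DESeq2 called 10.74%. Groups did not overlap for 5 members, where 50.3% of all tested genes did not overlap. Fosl1 lost its call without NG2 library 1 or 2 (edgeR adjusted p = 0.0935 and 0.0884) and without soft tissue sarcoma library 1 or 2 (0.217 and 0.273), with a replicate block (0.0801) and with only the groups compared (0.0705), while its log2 difference stayed between 4.87 and 5.61.

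**Figure D2:**
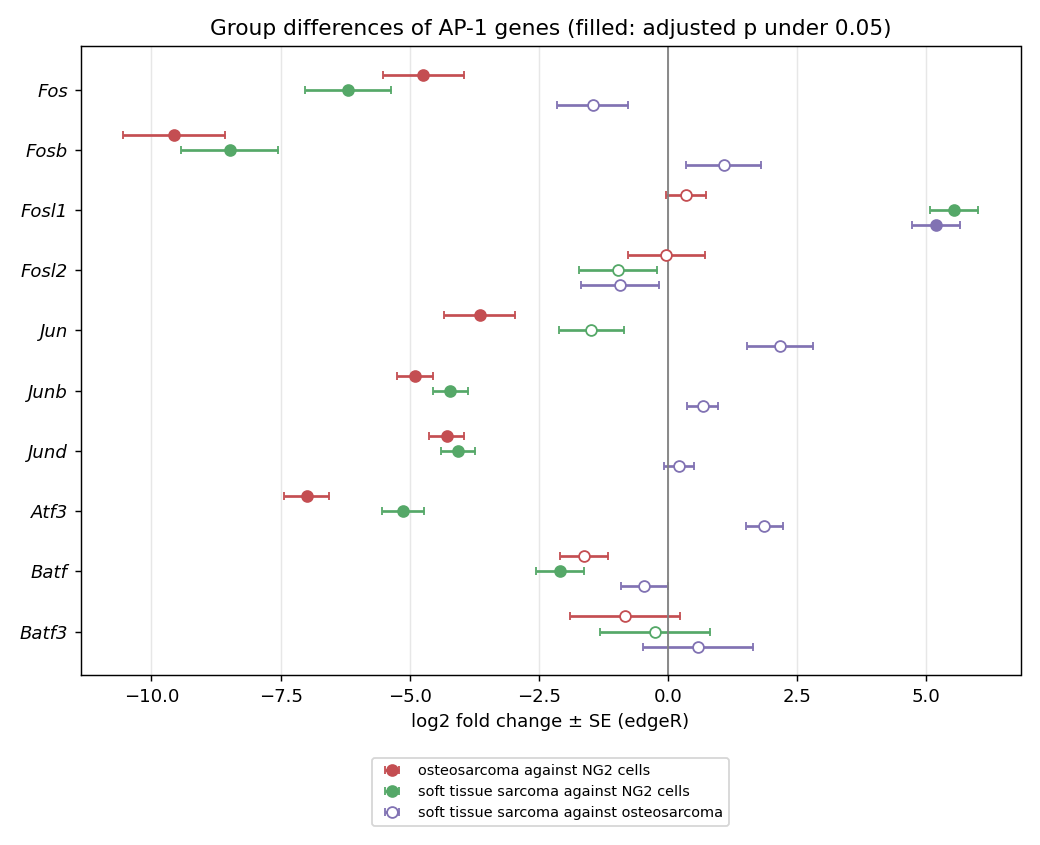
Log2 fold change with its SE for each AP-1 gene in the 3 comparisons, filled where the edgeR adjusted p was under 0.05. Fosl1 lies at 5.53 and 5.19 for soft tissue sarcoma against NG2 cells and against osteosarcoma, while Fosb lies at -9.57 and -8.49 for the tumours against NG2 cells.

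Levels per kilobase of annotated exon allow the genes to be compared within a library. The summed level of the 4 Fos genes was 601 and 764 CPM per kb in the NG2 libraries, 14.4 and 49.0 CPM per kb in the osteosarcomas, and 92.5 and 127 CPM per kb in the soft tissue sarcomas. Fos made up 85.6 and 82.0% of that sum in the NG2 libraries, 57.8 and 70.3% in the osteosarcomas, and 10.9 and 4.28% in soft tissue sarcoma. Fosl1 made up 0.284 and 0.330% in the NG2 libraries, 23.1 and 4.17% in the osteosarcomas, and 84.4 and 92.6% in soft tissue sarcoma. The ratio of Fosl1 to Fos per length was 0.00331 and 0.00403 in the NG2 libraries, 0.399 and 0.0594 in the osteosarcomas, and 7.75 and 21.6 in the soft tissue sarcomas, 3 ranges that did not overlap. The ratio is given as a description, because earlier results of these data were known when the family was chosen.

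In the Jun family, per length of all annotated exons, Junb led in the NG2 libraries and the osteosarcomas, and Jun in both soft tissue sarcomas. The summed level was 963 and 906 CPM per kb in the NG2 libraries, 31.4 and 47.3 CPM per kb in the osteosarcomas, and 104 and 72.8 CPM per kb in the soft tissue sarcomas. Junb was the largest part in NG2 cells at 75.8 and 71.2% and in osteosarcoma at 62.1 and 56.7%. In soft tissue sarcoma Jun was the largest part, at 52.9 and 45.6%, with Junb at 40.6 and 43.5%. This order of Jun and Junb depends on the length used. The annotated exons of Junb cover 2301 bases and its longest transcript 1809, while Jun has 3189 for both. A shorter length for Junb raises its part, and parts by the longest transcript are not given for this family. The part of Jund is uncertain because the annotation used for lengths starts it at base 70698949 of chromosome 8, downstream of the RefSeq start at 70697739. Over all 10 genes, the summed level was 4695 and 5263 CPM in the NG2 libraries against 144 to 543 CPM in the tumours.

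**Figure D3:**
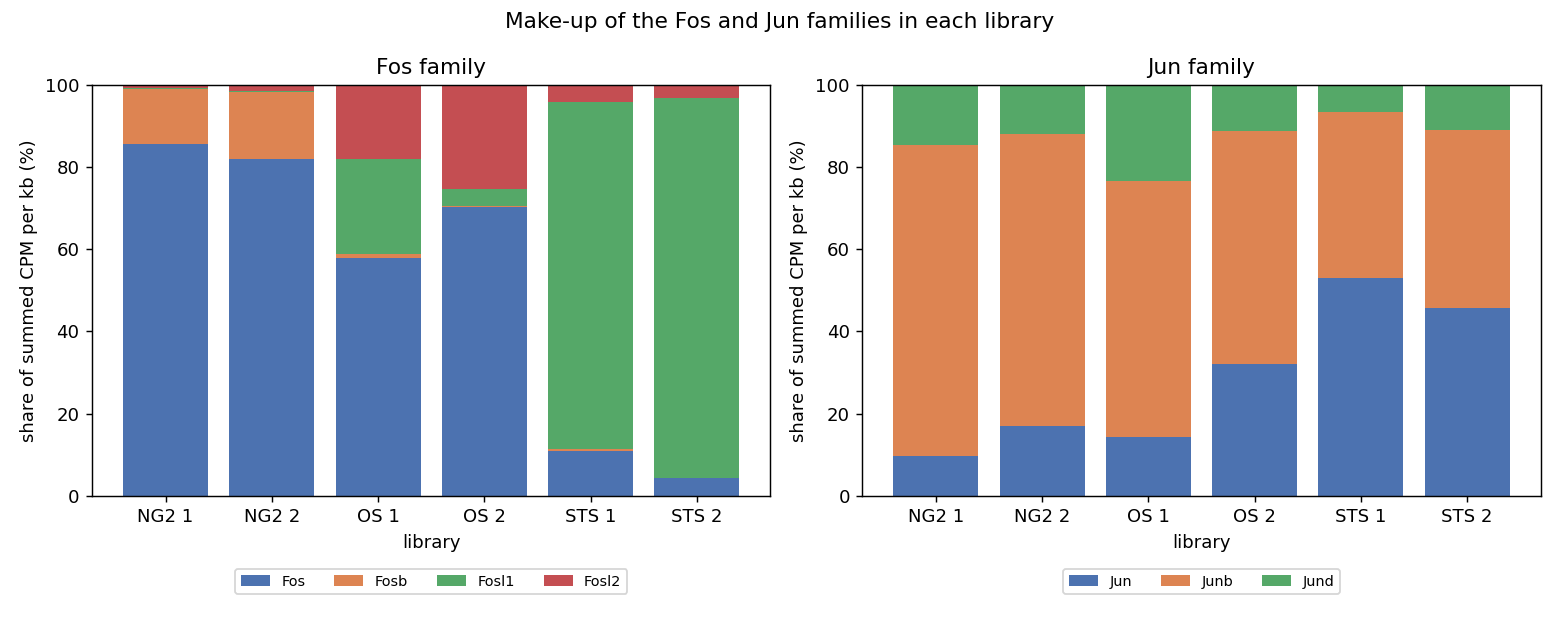
Share of each gene in the summed CPM per kb of the Fos family (left) and the Jun family (right) in each library (NG2, NG2 cells; OS, osteosarcoma; STS, soft tissue sarcoma). Fosl1 takes 84.4 and 92.6% of the Fos family in soft tissue sarcoma and under 1% in the NG2 libraries.

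Lists of B cell, T cell, granulocyte, dendritic cell and endothelial markers summed higher in both NG2 libraries than in every tumour. The macrophage, osteoblast, osteoclast and skeletal muscle lists did not. The B cell list (Cd79a, Cd79b, Ms4a1 and Pax5) summed to 3283 and 1034 CPM in the NG2 libraries and to 0.924 to 8.36 CPM in the tumours, all 4 genes fell in both tumour types, and Ms4a1 was at 0 in both osteosarcomas. The T cell list summed to 369 and 560 CPM in the NG2 libraries against 3.33 to 19.8 CPM in tumours, and the granulocyte list to 47.4 and 2410 CPM against 0.720 to 14.1 CPM. The dendritic cell list summed to 3735 and 1614 CPM in the NG2 libraries against 13.0 to 14.1 CPM in tumours, but 3654 and 1522 CPM of the NG2 sums were Ccr7, which lymphocytes also express. The other 5 dendritic cell markers each lay between 2.33 and 30.9 CPM in the NG2 libraries and between 0.0569 and 12.1 CPM in tumours. Endothelial genes summed to 878 and 1483 CPM in the NG2 libraries and to 99.4 to 274 CPM in tumours. All 5 T cell genes fell in both tumour types, and 3 of 5 endothelial genes in each. All 4 tested granulocyte genes fell in osteosarcoma and 1 in soft tissue sarcoma, where 11.0 and 9.40% of all genes fell. The part of the listed cell types in the AP-1 differences was not tested. The NG2 gene Cspg4 was at 38.7 and 30.6 CPM in the sorted cells, 118 and 37.7 CPM in the osteosarcomas, and 189 and 88.6 CPM in the soft tissue sarcomas. The 8 pericyte markers, Cspg4 among them, summed to 907 and 1466 CPM in the sorted cells and to 336 to 876 CPM in tumours. Rgs5 alone held 772 and 1290 CPM of the sums in the sorted cells. It was at 17.4 and 79.9 CPM in the osteosarcomas and 151 and 81.3 CPM in the soft tissue sarcomas, without overlap between sorted cells and tumours. In osteosarcoma Pdgfrb and Mcam rose (9.02-fold and 4.43-fold), Rgs5 fell and 5 of the 8 did not pass. Of all genes, 10.5% rose and 11.0% fell there. In soft tissue sarcoma Rgs5 fell and 7 did not pass, where 9.89% of all genes rose and 9.40% fell. In bulk RNA, fewer cells of a type and less RNA per cell cannot be told apart.

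Within the tumours, osteosarcoma library 2 exceeded library 1 in Fos (81.0 against 19.5 CPM), Fosl2 (120 against 25.1 CPM), Jun (48.4 against 14.5 CPM) and Junb (61.7 against 44.9 CPM). The other members, Fosb, Fosl1, Jund, Atf3, Batf and Batf3, were lower in library 2, Batf3 at 0.533 against 5.91 CPM. In the same library the osteoclast list summed to 14260 CPM, against 709 CPM in library 1, and the skeletal muscle list to 936 against 12.2 CPM. Macrophage genes summed to 736 and 2284 CPM in the NG2 libraries, 1236 and 1691 CPM in the osteosarcomas, and 3007 and 2623 CPM in the soft tissue sarcomas in which Fosl1 was high. Neither the part of osteoclasts or muscle nor that of macrophages was tested.

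Of the other AP-1 dimer partners and related factors, 16 were tested. In osteosarcoma 6 fell, 1 rose and 9 did not pass, and in soft tissue sarcoma 5 fell, 2 rose and 9 did not pass, where 21.5 and 19.3% of all genes were called. The median log2 differences were -1.01 and -1.11. Crem, a cyclic AMP-responsive factor with an inducible repressor isoform, was at 450 and 265 CPM in the NG2 libraries and at 10.5 to 17.6 CPM in the tumours, and fell 31.1-fold in osteosarcoma and 20.4-fold in soft tissue sarcoma (edgeR adjusted p = 0.00419 and 0.00735). Irf4, the lymphocyte partner of Batf, was at 210 and 137 CPM in the NG2 libraries and at 0.0356 to 1.11 CPM in the tumours, and fell in both (edgeR adjusted p = 0.00838 and 0.0119). Irf8, a partner of Batf and Batf3 in dendritic cells, was at 231 and 177 CPM in the NG2 libraries, 24.3 and 21.6 CPM in the osteosarcomas, and 85.0 and 60.5 CPM in the soft tissue sarcomas, and fell 8.89-fold and 2.80-fold (edgeR adjusted p = 0.00565 and 0.0252).

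Without NG2 library 1 the soft tissue sarcoma calls of Irf4 and Irf8 were lost (edgeR adjusted p = 0.0526 and 0.0957), and without library 2 that of Irf8 (0.0680). B cells and dendritic cells express both genes. Beside the 4 B cell markers, 4 of 6 dendritic cell markers fell in osteosarcoma and 5 of 6 in soft tissue sarcoma. Of all genes, 11.0 and 9.40% fell in these comparisons. The part of these cells in the differences of Irf4 and Irf8 was not tested. Atf4, the effector of the integrated stress response, fell 3.90-fold in osteosarcoma, from 438 and 393 CPM to 91.3 and 122 CPM (edgeR adjusted p = 0.0150). This call was lost without NG2 library 1 or 2, with log2 differences of -1.89 and -2.03. Atf4 also fell 2.59-fold in soft tissue sarcoma, to 127 and 194 CPM (edgeR adjusted p = 0.0361). Maf, a large bZIP factor of macrophages and other cells, rose 3.67-fold in soft tissue sarcoma, from 70.7 and 63.7 CPM to 241 and 253 CPM (edgeR adjusted p = 0.0171, and 0.0749 and 0.0849 without NG2 library 1 or 2). Between the tumour types none of the 16 was called by edgeR, 4 had an unadjusted p under 0.05, and DESeq2 called 2, Irf8 and Maf, beside 15.89 and 10.74% of all genes.

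Among 20 kinases and factors that induce AP-1 genes, 3 fell, 1 rose and 16 did not pass in osteosarcoma, and 4 fell, 1 rose and 15 did not pass in soft tissue sarcoma, with median log2 differences of -0.22 and -0.13. The called genes were 4 and 5 of 20, near the shares of 21.5 and 19.3% over all genes. Map3k8, a kinase upstream of ERK in immune signalling, was at 133 and 80.9 CPM in the NG2 libraries, 4.19 and 6.61 CPM in the osteosarcomas, and 12.6 and 9.80 CPM in the soft tissue sarcomas. It fell 19.8-fold and 9.52-fold (edgeR adjusted p = 0.00591 and 0.0110). Elk4, a ternary complex factor that joins serum response factor on the Fos promoter, fell 3.16-fold in osteosarcoma and 4.89-fold in soft tissue sarcoma (edgeR adjusted p = 0.0227 and 0.0134), calls lost without NG2 library 1 (0.0847 and 0.0570) or 2 (0.0755 and 0.0550).

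Mef2d, which with Mef2c serves the Jun promoter, fell 2.54-fold in osteosarcoma (edgeR adjusted p = 0.0228), and Mef2c fell 7.79-fold in soft tissue sarcoma (edgeR adjusted p = 0.0303). Without NG2 library 1 or 2 these calls were lost (Mef2d, adjusted p = 0.0848 and 0.0580; Mef2c, 0.105 and 0.0634). Map2k2, which encodes the ERK kinase MEK2, rose 2.96-fold in osteosarcoma and Mapk7, the kinase ERK5, rose 3.52-fold in soft tissue sarcoma (edgeR adjusted p = 0.0420 and 0.0452), both likewise lost (0.141 and 0.154 for Map2k2, 0.0790 and 0.144 for Mapk7). The difference of Mef2c, -2.96 on the log2 scale, was -2.30 without NG2 library 1. Elk4, Mef2d and Map2k2 also left the osteosarcoma calls without soft tissue sarcoma library 1 (edgeR adjusted p = 0.0654, 0.0739 and 0.0786) or 2 (0.0663, 0.0753 and 0.0789), Mef2d without osteosarcoma library 1 (0.0637) and Map2k2 without library 2 (0.110). Between the tumour types none of the 20 was called by edgeR, 5 had an unadjusted p under 0.05, and DESeq2 called 1, Mrtfa, beside 15.89 and 10.74% of all genes.

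Feedback regulators of AP-1 induction include dual-specificity phosphatases that act on the kinases, Sprouty and Spred inhibitors of receptor and Ras signalling, Zfp36 proteins that shorten the life of early mRNAs, and Fbxw7, part of a ubiquitin ligase. Of 16 such genes, 10 fell, none rose and 6 did not pass in each tumour type, where 11.0 and 9.40% of all genes fell, with medians of -1.88 and -1.62. DESeq2 called 1 of them higher in each, as did an unadjusted p under 0.05 in edgeR. Zfp36, which binds AU-rich early mRNAs and promotes their decay, was at 715 and 757 CPM in the NG2 libraries, 17.97 and 25.03 CPM in the osteosarcomas, and 43.9 and 27.8 CPM in the soft tissue sarcomas. It fell 34.2-fold and 20.5-fold (edgeR adjusted p = 0.00419 and 0.0074).

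The dual-specificity phosphatases Dusp2 and Dusp5, which act on ERK in the nucleus, fell 53.6-fold and 19.3-fold in osteosarcoma (edgeR adjusted p = 0.00498 and 0.00552), and 33.8-fold and 11.4-fold in soft tissue sarcoma (0.00839 and 0.00939). Dusp1 fell 43.1-fold in osteosarcoma, from 240 and 377 CPM to 4.19 and 10.2 CPM (edgeR adjusted p = 0.00674), a log2 difference of -5.43 that was -6.19 without osteosarcoma library 2. In soft tissue sarcoma Dusp1 fell 22.1-fold, to 16.7 and 11.2 CPM (edgeR adjusted p = 0.0108). Dusp8, which acts on JNK and p38, fell 10.1-fold in soft tissue sarcoma, from 91.4 and 105 CPM to 8.86 and 10.6 CPM (edgeR adjusted p = 0.00865). It also fell 4.54-fold in osteosarcoma, to 26.7 and 16.7 CPM (edgeR adjusted p = 0.0132). Between the tumour types none of the 16 was called by edgeR, 5 had an unadjusted p under 0.05, and DESeq2 called 1, Dusp8, beside 15.89 and 10.74% of all genes.

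Most other immediate early genes fell in the tumours. Of 14, 13 fell and 1 did not pass in osteosarcoma, and 11 fell and 3 did not pass in soft tissue sarcoma, where 11.0 and 9.40% of all genes fell, with medians of -3.95 and -4.18. None was called higher, with edgeR at an unadjusted p under 0.05 or with DESeq2 either. Btg2, an antiproliferative gene, was at 1630 and 1996 CPM in the NG2 libraries, 30.5 and 31.5 CPM in the osteosarcomas, and 56.9 and 46.5 CPM in the soft tissue sarcomas, and fell 58.5-fold and 35.1-fold (edgeR adjusted p = 0.00419 and 0.0073). Klf2, a factor of endothelial cells and resting lymphocytes, was at 253 and 242 CPM in the NG2 libraries and at 3.67 to 9.08 CPM in the tumours, and fell 28.2-fold and 53.4-fold (edgeR adjusted p = 0.00419 and 0.0073).

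The orphan nuclear receptor Nr4a2 fell 17.9-fold in osteosarcoma and 14.1-fold in soft tissue sarcoma (edgeR adjusted p = 0.00497 and 0.00806). Nr4a1, a relative that responds to antigen receptors and growth factors, fell 123-fold in soft tissue sarcoma, from 1015 and 621 CPM to 7.10 and 6.20 CPM (edgeR adjusted p = 0.00813). Klf6 fell 12.8-fold in osteosarcoma, from 2179 and 2257 CPM to 212 and 135 CPM (edgeR adjusted p = 0.00521). Between the tumour types none of the 14 was called by edgeR, 4 had an unadjusted p under 0.05, and DESeq2 called 1, Ier3, beside 15.89 and 10.74% of all genes.

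Genes reported as AP-1 targets did not share one direction. Of 23, 8 rose, 3 fell and 12 did not pass in osteosarcoma, and 9 rose, 2 fell and 12 did not pass in soft tissue sarcoma, with medians of 1.40 and 2.48. Of all genes, 10.5% rose and 11.0% fell in the former comparison, and 9.89% rose and 9.40% fell in the latter. Mmp13, a collagenase of bone and cartilage, was at 0.582 and 0 CPM in the NG2 libraries, 23790 and 5232 CPM in the osteosarcomas, and 35.95 and 45.02 CPM in the soft tissue sarcomas. It rose in osteosarcoma and in soft tissue sarcoma (edgeR adjusted p = 0.00866 and 0.0294). Sphk1, a lipid kinase, rose 13.4-fold in osteosarcoma, from 9.20 and 8.16 CPM to 132 and 99.8 CPM (edgeR adjusted p = 0.00544). It also rose 3.76-fold in soft tissue sarcoma, to 38.6 and 26.7 CPM (edgeR adjusted p = 0.0171). Ezr, which links membrane to actin, fell 17.6-fold in osteosarcoma and 18.3-fold in soft tissue sarcoma (edgeR adjusted p = 0.00552 and 0.00806).

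In osteosarcoma the receptor tyrosine kinase gene Axl rose 2.64-fold, from 27.3 and 34.4 CPM to 102 and 60.9 CPM (edgeR adjusted p = 0.0436). In soft tissue sarcoma Axl rose 13.8-fold, to 501 and 353 CPM (edgeR adjusted p = 0.00863). Plau, the protease urokinase, rose 5.56-fold there, from 19.7 and 15.6 CPM to 112 and 83.9 CPM (edgeR adjusted p = 0.0107, and 0.0532 without NG2 library 2). Its receptor Plaur fell 6.004-fold in osteosarcoma and 4.48-fold in soft tissue sarcoma, from 499 and 351 CPM to 60.1 and 81.5 CPM and to 90.4 and 99.6 CPM (edgeR adjusted p = 0.00808 and 0.0131, the latter 0.0544 without NG2 library 1). Urokinase and its receptor thus went in opposite directions in soft tissue sarcoma.

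Between the tumour types the chemokine gene Ccl2 was the 1 target of 23 called, at 885 and 823 CPM in soft tissue sarcoma against 62.2 and 44.3 CPM in the osteosarcomas, a 16.04-fold rise (edgeR adjusted p = 0.0459). That call was lost without either NG2 library (0.0935 and 0.0884), without osteosarcoma library 1 (0.0526), without either soft tissue sarcoma library (0.244 and 0.273), with a replicate block (0.0830) and with only the groups compared (0.0705). Hmga1, a chromatin protein, was at 368 and 135 CPM against 2.75 and 2.99 CPM, with an edgeR adjusted p of 0.0583. DESeq2 called 4 of the 23 higher and 3 lower, where it called 10.74% of all genes.

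**Figure D4:**
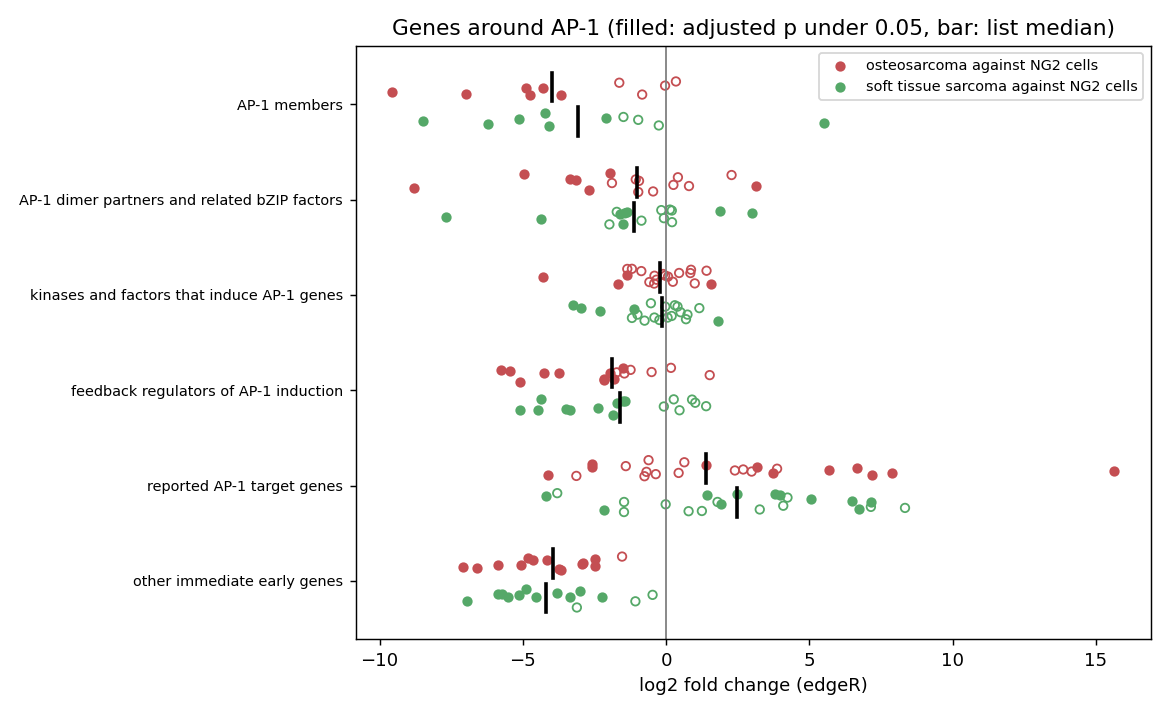
Log2 fold change of each tested gene of 6 lists in osteosarcoma (red) and soft tissue sarcoma (green) against the same NG2 cells, filled where the edgeR adjusted p was under 0.05, with a bar at the list median. The medians of the members are -3.97 and -3.08, those of other immediate early genes -3.95 and -4.18, and those of the reported targets 1.40 and 2.48.

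The genes whose levels ran most like 3 of the members were found among 9634 protein-coding genes with a mean of at least 10 CPM, by Pearson's r of log2(CPM + 1) over the 6 libraries. These r values describe 3 groups of 2 libraries and carry no test. Nearest to Fos were Gimap6 (r = 0.996), Mbp (0.994), H2-M2 (0.994), Slc9a3r1 (0.994) and Tgoln1 (0.994). Gimap6, a GTPase gene of lymphocytes and endothelium, was at 731 and 676 CPM in the NG2 libraries, 14.8 and 65.6 CPM in the osteosarcomas, and 19.9 and 16.4 CPM in the soft tissue sarcomas.

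Nearest to Fosl1 were Prl2c2 (r = 0.995), Igf2bp2 (0.993), Ganab (0.993), Ankrd50 (0.992) and Ctsl (0.992). Igf2bp2, an RNA-binding protein gene, was at 0.803 and 1.33 CPM in the NG2 libraries, 1.40 and 0.391 CPM in the osteosarcomas, and 106 and 94.0 CPM in the soft tissue sarcomas. Ctsl, the lysosomal protease cathepsin L, was at 78.3 and 107 CPM in the NG2 libraries, 139 CPM in both osteosarcomas, and 1221 and 1429 CPM in the soft tissue sarcomas. Prl2c2, which has near-identical copies that the counting could split, had no counts outside soft tissue sarcoma, where it was at 27.7 and 38.6 CPM.

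Nearest to Batf were 4931406P16Rik (r = 0.998), Cdkn1b (0.994), Ubp1 (0.994), Stag2 (0.993) and Sgk3 (0.992). Cdkn1b, which encodes the cell cycle inhibitor p27, was at 80.0 and 134 CPM in the NG2 libraries, 45.1 and 39.2 CPM in the osteosarcomas, and 37.8 and 29.4 CPM in the soft tissue sarcomas.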

How the data were processed

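RNA of 6 mouse libraries was sequenced; per the labels' protocols, cDNA was made by template switching on oligo(dT) from about 10 ng of total RNA and amplified in 20 PCR cycles. The deposited values were raw counts of reads per Ensembl gene. The authors used STAR and HTSeq, beside Trim Galore, cutadapt, FastQC and DESeq2, with builds GRCm38 and mm10, per the submitters' processing notes, which gave no versions or settings. Depth was 27693585 to 58126832 counts on genes, and counters for reads on no gene (19.5 to 33.2% of all counted reads) or several genes (2.57 to 3.22%) were left out. Reads carried no molecular identifiers, so PCR copies are not independent molecules.

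From the counts, edgeR 4.0.16 in R 4.3.3 was run on all 6 libraries (TMM, filterByExpr with minimum count 10 and minimum total 15, quasi-likelihood F test, no covariates, 3 residual and 3.04 prior degrees of freedom, biological coefficient of variation 0.578). Benjamini-Hochberg adjusted p under 0.05 over 19024 genes made a call, and only called genes are said to rise or fall. The SE is the log2 difference over the root of F. Recovery was tested on simulated data. CPM were scaled by TMM. Positions and exon lengths came from GENCODE M21, promoters from RefSeq. The 10 members and the lists (153 of 154 genes matched, Atf7 not used here, and 1 further marker gene not reported here) were chosen with earlier results of these data known. The text names all members, up to 4 genes per list and comparison in order of p, 5 nearest genes each for Fos, Fosl1 and Batf, and genes with overlapping exons. A list gene given for 1 tumour type may also be called in the other. Calls outside the first 4 of a list are given for the edgeR fit on all 6 libraries alone. Libraries of a group differed by more than sampling noise and counted as 2. Alternatives were RLE factors, library totals, no immunoglobulin genes, DESeq2 1.42.0, no filter, a replicate block, only the groups compared, and each library left out.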

Additional observations from a re-analysis of the deposited data

Results flagged for a closer look

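The contrast with NG2 cells differed between the tumour types for Fosl1: the direct comparison of soft tissue sarcoma with osteosarcoma, which equals the difference of the 2 contrasts because they share the NG2 libraries, was 5.19 on the log2 scale (edgeR adjusted p = 0.0428). By edgeR it was the 1 member of the 10 with such a difference past the threshold, and DESeq2 put 3 there. The edgeR call was lost with a replicate block (adjusted p = 0.0801), with only the groups compared (0.0705), and without either NG2 library or either soft tissue sarcoma library (0.0884 to 0.273).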

How the results depend on the processing

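Over the 10 members and the named genes, 1033 of 1170 values under another setting kept direction and side of the threshold, 108 lost the call, 20 gained it and 9 turned sign, and none of the 9 was called. For osteosarcoma against NG2 cells these were Fosl2 under library totals (0.033), without NG2 library 2 (0.70) and without osteosarcoma library 1 (0.69), Fosl1 without osteosarcoma library 1 (-0.052) and Batf3 without osteosarcoma library 2 (0.050). For soft tissue sarcoma against NG2 cells it was Batf3 without NG2 library 2 (0.25), and between the tumours Fosl2 (0.60) and Batf3 (-0.28) without osteosarcoma library 2 and Fosb (-0.54) without soft tissue sarcoma library 1. With 1 library left out, these differences ranged from -1.55 to 0.70 (Fosl2), -0.052 to 0.67 (Fosl1) and -3.43 to 0.050 (Batf3) in osteosarcoma against NG2 cells, from -0.61 to 0.25 (Batf3) in soft tissue sarcoma against NG2 cells, and from -1.63 to 0.60 (Fosl2), -0.28 to 3.21 (Batf3) and -0.54 to 1.80 (Fosb) between the tumours. The cause was not tested.

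The count of members higher in soft tissue sarcoma than in osteosarcoma, 1, was 3 with DESeq2, 2 without the filter, and 0 with a replicate block or with only those groups fitted. With 1 library left out, members counted lower were 4 to 6 in osteosarcoma and 0 to 7 in soft tissue sarcoma against NG2 cells, where 0 to 1 were higher, as between the tumours.

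Over all genes, DESeq2 called 3593 lower and 3395 higher in osteosarcoma, 3371 and 3224 in soft tissue sarcoma, and 783 and 1146 between the tumours, where no filter gave 162 and 247. With only the groups compared, the calls were 1275 lower and 808 higher in osteosarcoma (61.2% lower, against 51.2%), 2781 lower in soft tissue sarcoma, and 0 and 0 between the tumours, where 3073 genes had an unadjusted edgeR p under 0.05. With 1 library left out, lower and higher calls ranged over 712 to 1834 and 566 to 1595 in osteosarcoma, 0 to 2358 and 0 to 2340 in soft tissue sarcoma, and 0 to 132 and 0 to 183 between the tumours.

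Whether libraries with the same replicate number came from 1 animal cannot be told from the counts. The replicate numbers showed no shared pattern: differences between replicates correlated across genes at 0.05, -0.00277 and -0.09 for the 3 pairs of groups. As a block they gave 1247 higher calls in osteosarcoma, 1104 lower and 1105 higher in soft tissue sarcoma, and 4 and 4 between the tumours, with adjusted p of 0.0801 for Fosl1 and 0.0830 for Ccl2 there, 0.0621 for Batf and 0.0592 for Mapk7 in soft tissue sarcoma against NG2 cells, and 0.0773 for Map2k2 in osteosarcoma. With only the groups compared, Elk4 (0.0530), Mef2d (0.0572) and Map2k2 (0.0673) lost the call in osteosarcoma, and Jun gained it in soft tissue sarcoma (0.0391). Library totals moved the median of all genes to 0.13 and 0.15 in the tumours against NG2 cells. The mean Fosl1 share of the Fos family in the 4 pooled tumour libraries differed from that in NG2 cells by 50.7 percentage points. This difference was 41.9 to 50.9 under other length settings or without Fosb, and 36.9 to 66.4 with 1 library left out. It describes neither tumour type, because the share was 23.1 and 4.17% in the osteosarcomas and 84.4 and 92.6% in the soft tissue sarcomas (SD 44.0 over the 4). An exact permutation test of the Fosl1 share, with 2 NG2 against 4 tumour libraries, gave p = 0.133 over its 15 splits. Setting the 2 soft tissue sarcomas against the other libraries gave a larger difference in share. The test decides nothing here, because the family was chosen with earlier results of these data known. With 2 libraries a group, a permutation of 2 against 2 cannot give a p under 0.333. Low counts limit Fosb in the tumours.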
